A study of Mus musculus with 6 samples.

Results

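The CCN family is a small family of secreted matricellular proteins, and its genes were followed here in primary cardiac fibroblasts treated with PDGF-DD. Members were taken by gene symbol. All 6 genes, Ccn1 to Ccn6, were found among the 18059 genes of each expression table, and all 6 were among the 13270 genes that passed the filter on low counts. PDGF-DD, the dimeric form of platelet-derived growth factor D, signals mainly through the receptor PDGFRβ. Cells came from the hearts of C57BL/6 mice 1 to 2 weeks old and were grown in medium with 15% fetal bovine serum. They received PDGF-DD for 12 hours, at a labelled dose of 20 µM (a doubtful unit, since growth factors are used at far lower doses), or saline as the control, and 3 libraries were made per group. By the growth protocol, every culture was derived from mice with a global PDGF-D knockout. The genotype field instead gives PDGF-D -/- for the PDGF-DD samples and control for the control samples, so if that field is right, genotype and treatment cannot be told apart. The labels do not tie the 3 libraries of a group to separate animals or cultures, and p-values measure only the spread among these libraries, possibly a technical one.

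CCN proteins are built from modules related to IGF-binding proteins, the von Willebrand factor type C domain and the thrombospondin repeat, most of them followed by a cystine-knot module at the carboxy end. They sit in the pericellular matrix, bind integrins, heparan sulfate proteoglycans and growth factors, and alter how cells respond to them. Ccn1 and Ccn2 are widely used readouts of the mechanosensitive YAP/TAZ-TEAD and MRTF-SRF transcription factors and of TGF-beta, and Ccn2 is a common marker of fibrosis in the heart. Ccn5 encodes the family member that lacks the cystine-knot module and has been described in mice as opposing cardiac fibrosis. In the GENCODE annotation of GRCm38 its longest coding sequence has 753 bases without the stop codon, against between 1044 and 1137 bases for the other members.

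With PDGF-DD the summed level of the family overlapped that in control, while its makeup differed. Ccn1 and Ccn2 rose slightly, Ccn3 and Ccn5 fell, Ccn4 was called lower by a small margin, and Ccn6, close to the limit of detection, did not pass the test. Ccn5 changed most, to 0.455 times its control level. Of the 6 members 5 were called, 2 higher and 3 lower (quasi-likelihood test of edgeR, with a threshold of 0.05 on p-values adjusted by Benjamini-Hochberg over all tested genes). Over all tested genes 36.5% were called, 19.1% higher and 17.4% lower, so a call in this comparison was common. The median log2 fold change was -0.30 over the 6 members and -0.01 over all tested genes.

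The libraries held between 21221114 and 21371829 estimated counts each, with TMM scaling factors between 0.9947 and 1.005. Between libraries of a group, the chi-square of the counts divided by its degrees of freedom was 1.90 to 2.74 for PDGF-DD. It was 2.48 for control replicates 2 and 3, and higher, 5.11 and 5.71, for control replicate 1 against each of these. Pdgfd, the gene named as knocked out, had 69, 72 and 82 estimated counts in the PDGF-DD libraries and 118, 114 and 91 in the control libraries. Reads were thus assigned to it in every library (edgeR adjusted p = 0.00245, log2 fold change -0.55, SE 0.14), and whole-gene counts cannot tell which exons the reads came from. In limma on log2(FPKM + 1) its log2 fold change was -0.30. Of 10 fibroblast markers all were tested, and their summed level was 18530 to 18841 TPM with PDGF-DD and 20109 to 22055 TPM in control. Most of this sum was the collagen genes Col1a1, Col1a2 and Col3a1. In TPM these genes, Dcn, Lum and Tcf21 were lower in every PDGF-DD library than in every control library. Pdgfra was higher, at 61.26 to 64.97 TPM with PDGF-DD and 43.47 to 50.6 TPM in control. Postn, Ddr2 and Thy1 overlapped between the groups. Markers of other heart cells were also present at lower sums. For endothelial cells the sum was 148.6 to 151.6 TPM with PDGF-DD against 153 to 171 TPM in control. For macrophages and leukocytes it was 357 to 377 TPM with PDGF-DD against 409 to 430 TPM in control. Most of this latter sum was Lyz2, at 265 to 276 TPM with PDGF-DD and 302 to 329 TPM in control. Epicardial markers summed to 60.4 to 64.9 TPM with PDGF-DD and 60.9 to 71.1 TPM in control, and Schwann cell markers to 6.81 to 7.34 TPM with PDGF-DD and 7.54 to 8.71 TPM in control. Cardiomyocyte markers summed to 222 to 251.2 TPM with PDGF-DD and 312 to 336 TPM in control. Nearly all of that sum was Tnnt2. Over the 6 libraries Myh6 was at 1.21 to 2.26 TPM, Nppa at 0.95 to 3.79 TPM and Tnni3 at 0.40 to 1.94 TPM. The other markers of this list, Actn2, Ryr2 and Pln, stayed below 1 TPM in every library.

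Levels of different members can be compared in TPM, which corrects for transcript length. Ccn2 was the most abundant member in both groups, with 2936 ± 102 TPM with PDGF-DD and 2531 ± 129 TPM in control (SD, n = 3 each), which ranked 34 and 40 among all genes of the tables. Ccn1 followed with 1292 ± 51.6 TPM with PDGF-DD and 1092 ± 55.3 TPM in control. Ccn5 came next, with 469.8 ± 25.0 TPM with PDGF-DD, rank 319, and 1038 ± 20.7 TPM in control, rank 152. Ccn4 had 201 ± 3.73 TPM with PDGF-DD and 222 ± 18.8 TPM in control, and Ccn3 24.1 ± 0.48 TPM with PDGF-DD and 34.8 ± 2.42 TPM in control. Ccn6 was listed at 0.24 ± 0.12 TPM with PDGF-DD and 0.23 ± 0.06 TPM in control.

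The order of the members was the same in every library, but several steps of it differed in width between the groups. In control libraries the ranges of Ccn1, from 1036 to 1146 TPM, and of Ccn5, from 1020 to 1061 TPM, overlapped, although Ccn1 was the higher gene within each library. With PDGF-DD the ranges were far apart, with Ccn1 between 1236 and 1338 TPM and Ccn5 between 441 and 488 TPM. All other neighbours in the order had TPM ranges apart in both groups. Among them, Ccn4 stood at 0.429 of Ccn5 with PDGF-DD and 0.214 in control. Ccn3 stood at 0.120 of Ccn4 with PDGF-DD and 0.157 in control.

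**Figure D1:**
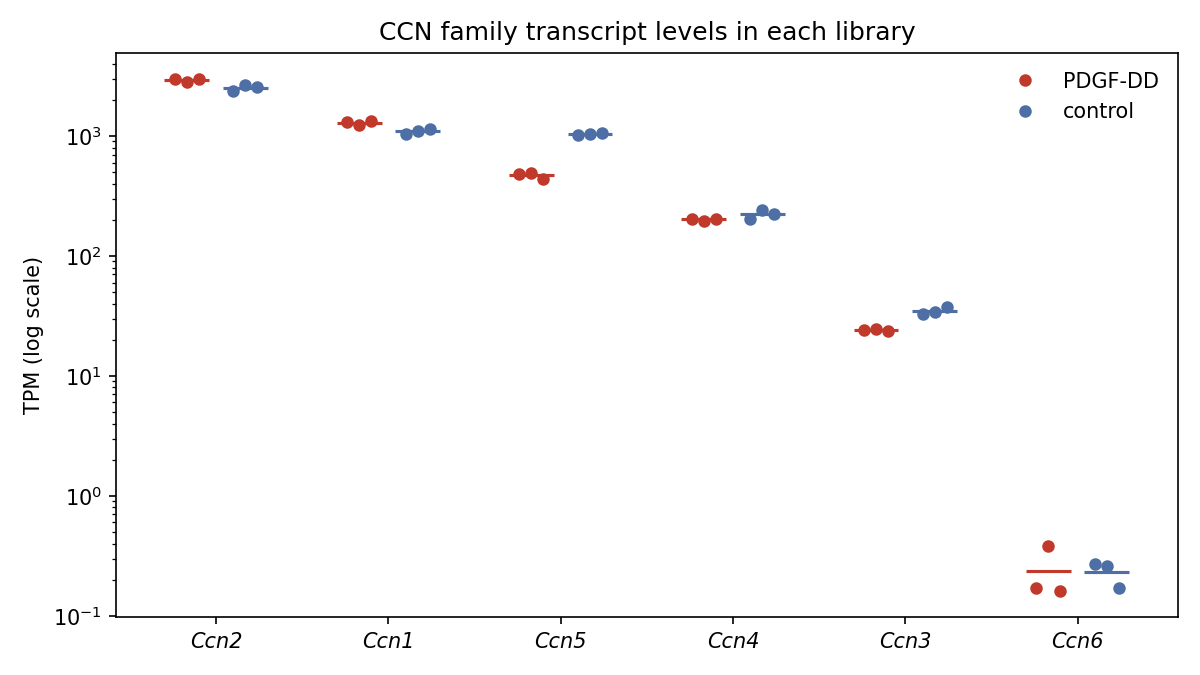
Level of each CCN gene in TPM, on a log axis, with 1 point per library (PDGF-DD left, control right) and a line at the group mean. The members span from 2936 TPM for Ccn2 with PDGF-DD to below 1 TPM for Ccn6, and Ccn5 shows the widest separation between the groups, with 441 to 488 TPM with PDGF-DD against 1020 to 1061 TPM in control.

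Summed over the 6 members, the level was 4995, 4765 and 5011 TPM in the PDGF-DD libraries and 4684, 5048 and 5024 TPM in the control libraries. The groups overlapped, with means of 4924 ± 137 TPM with PDGF-DD and 4918.5 ± 204 TPM in control. Within that sum Ccn2 made up 59.6% ± 0.42 with PDGF-DD and 51.5% ± 0.85 in control, and Ccn1 26.2% ± 0.41 with PDGF-DD and 22.2% ± 0.58 in control. Ccn5 made up 9.55% ± 0.72 with PDGF-DD and 21.1% ± 0.66 in control. Ccn4 held 4.09% ± 0.05 of the sum with PDGF-DD and 4.52% ± 0.22 in control, and Ccn3 0.49% ± 0.02 with PDGF-DD and 0.71% ± 0.03 in control. In these shares each member's part also moves with the others, so they describe the makeup and not separate changes.

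**Figure D2:**
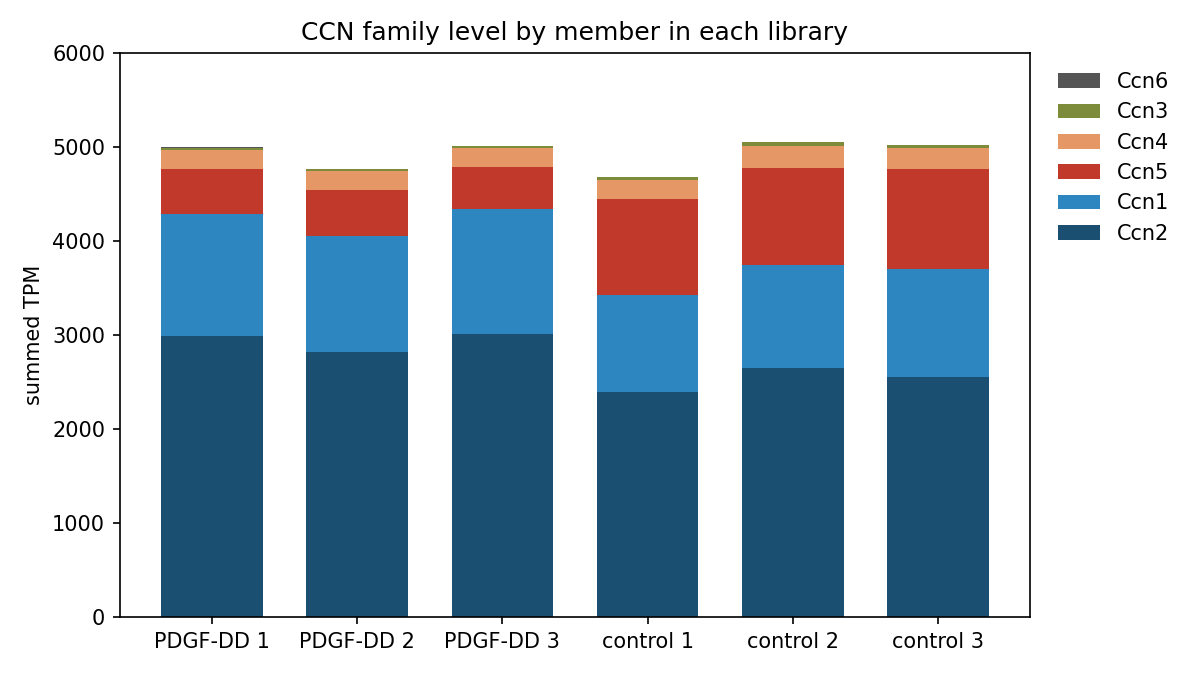
Summed TPM of the 6 CCN genes in each library, stacked by member, with the PDGF-DD libraries left of the control libraries. The height of the bars overlaps between the groups, at 4765 to 5011 TPM with PDGF-DD against 4684 to 5048 TPM in control, while the Ccn5 segment is about 9.55% of the bar with PDGF-DD and 21.1% in control.

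Ccn5, also known as Wisp2, restrains growth and motility in cultured smooth muscle cells. Its level was 356, 368 and 328 CPM (counts scaled to library size with TMM factors) in the PDGF-DD libraries and 782, 757 and 771 CPM in the control libraries. The highest PDGF-DD library was more than 2-fold below the lowest control library, so the groups lay far apart. Ccn5 was 2.2-fold lower with PDGF-DD (log2 fold change -1.14, SE 0.04, 95% interval -1.22 to -1.05, edgeR adjusted p = 7.3e-17). By p-value it was the 5th of the 13270 tested genes, and only 0.814% of tested genes were called and at least 2-fold lower. It had between 7033 and 16595 estimated counts per library, so counting error was small. The log2 fold change was between -1.16 and -1.08 under all 15 alternative settings.

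Ccn3, formerly Nov, encodes a protein that binds Notch receptors and has been reported to counter Ccn2 in fibrosis models. It measured 24.8, 25.6 and 24.2 CPM with PDGF-DD and 34.6, 34.4 and 37.7 CPM in control. All PDGF-DD libraries were lower than all control libraries. The log2 fold change was -0.52 (SE 0.06, 95% interval -0.64 to -0.39, edgeR adjusted p = 1.69e-07), which is a 1.43-fold lower level at low to moderate abundance.

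Ccn4, or Wisp1, was first described as a gene induced by Wnt1 and promotes fibroblast proliferation and matrix production. It stood at 440.0, 434 and 438 CPM with PDGF-DD and at 453, 511 and 477 CPM in control. The PDGF-DD libraries were close together and the control libraries spread wider, with coefficients of variation of 0.72% for PDGF-DD and 6.06% for control. The groups did not overlap in CPM, but in TPM control replicate 1, at 203 TPM, lay within the PDGF-DD range of 197 to 204 TPM. The log2 fold change of -0.13 (SE 0.04, 95% interval -0.22 to -0.05) passed the test with an edgeR adjusted p of 0.0119. The call was lost without PDGF-DD replicate 1 (edgeR adjusted p = 0.0521), 2 (0.0612) or 3 (0.0598) or control replicate 2 (0.123, log2 fold change -0.087), and in limma on TPM or FPKM, with adjusted p-values from 0.000418 to 0.123 over the 15 alternatives.

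Ccn1, formerly Cyr61, is an immediate early gene of growth factor and serum stimulation whose protein binds integrins and drives adhesion and migration. Its level was 1126, 1094 and 1161 CPM with PDGF-DD and 928, 932 and 977 CPM in control. Every PDGF-DD library was above every control library, by a narrow margin. The log2 fold change was 0.25 (SE 0.04, 95% interval 0.18 to 0.33, edgeR adjusted p = 5.32e-06), or 1.19-fold.

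Ccn2, formerly Ctgf, encodes connective tissue growth factor, which promotes matrix production downstream of TGF-beta. It measured 3071, 2967 and 3101 CPM with PDGF-DD and 2549, 2682 and 2592 CPM in control. The groups again did not overlap. Its log2 fold change was 0.22 (SE 0.03, 95% interval 0.15 to 0.30, edgeR adjusted p = 1.18e-05), or 1.17-fold. For both Ccn1 and Ccn2 the change was larger than the spread between libraries, whose coefficient of variation was between 2.32% and 2.98%, and smaller than the 95th percentile of all tested genes, 0.41.

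The Ccn1 promoter is shown because it is the called member for which a RefSeq promoter window was at hand; such windows matched 2 of the 6 members, Ccn1 and Ccn6. The sequence holds the 250 bases before the start site, on the minus strand of GRCm38.p6 at chr3:145649986-145650235, and capitals mark the letters GGAATG, the core motif of TEAD factors, read on the other strand.
Ccn1: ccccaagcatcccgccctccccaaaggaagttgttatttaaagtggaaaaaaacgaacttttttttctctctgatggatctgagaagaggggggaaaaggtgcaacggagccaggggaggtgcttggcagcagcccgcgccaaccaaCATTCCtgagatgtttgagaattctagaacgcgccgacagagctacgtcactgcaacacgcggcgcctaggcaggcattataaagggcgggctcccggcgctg
The motif lies 103 to 98 bases before the start, overlaps no other motif searched, and was present on either strand in 14.7% of the 32851 windows of 300 bases in the table. The AP-1 motif TGANTCA, the CArG box of SRF and the SMAD motif CAGACA, searched on both strands, had no match in the Ccn1 window, and 7.81%, 1.63% and 21.04% of all windows hold them. The letters TATAAA, searched after the sequence had been seen, stand 25 to 20 bases before the start on the strand shown, and 8.32% of windows hold them on the strand of the gene. None of these motifs was found in the Ccn6 window. These matches describe letters only.

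Ccn6, or Wisp3, is known from human skeletal disease. It had 13, 13.75 and 11 estimated counts with PDGF-DD and 21, 18.03 and 13 in control, or 0.61, 0.65 and 0.51 CPM with PDGF-DD against 0.99, 0.85 and 0.61 CPM in control. The groups overlapped. It did not pass the test (log2 fold change -0.46, SE 0.31, 95% interval -1.10 to 0.18, edgeR adjusted p = 0.263), and its interval holds both a fall and no change at this depth. With 1 library left out the log2 fold change ran from -0.63 without control replicate 3 to -0.30 without control replicate 1, and it was -0.03 in limma on log2(TPM + 0.1). Its direction was not kept in limma on log2(TPM + 1) or log2(FPKM + 1).

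**Figure D3:**
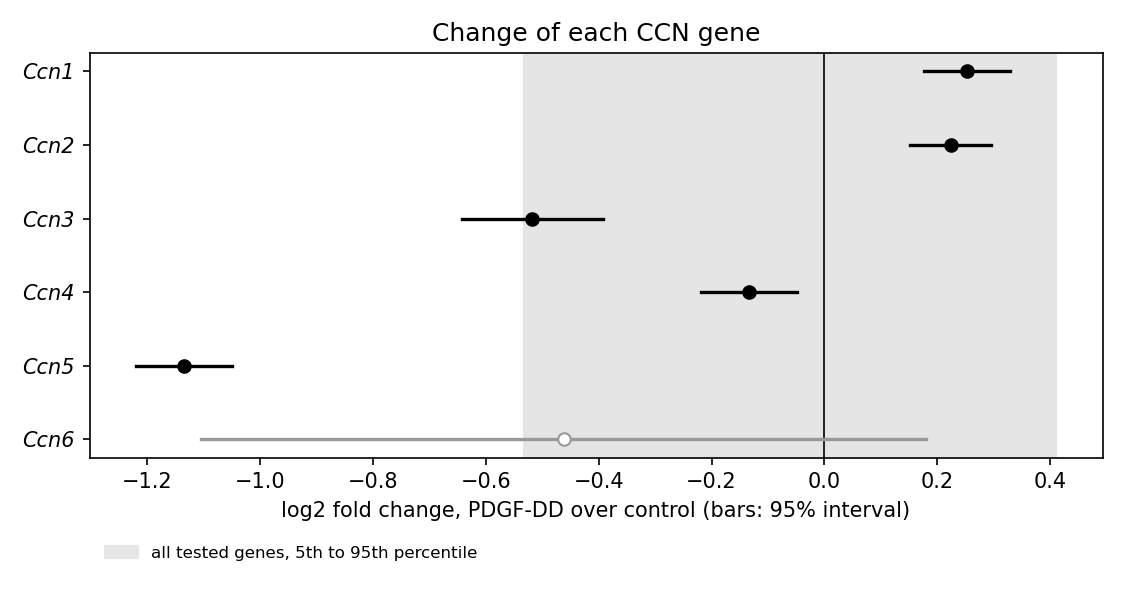
Log2 fold change of each CCN gene, PDGF-DD over control, with its 95% interval; filled points passed an adjusted p of 0.05 and the open point did not. The grey band spans the 5th to the 95th percentile of all tested genes, -0.53 to 0.41, and Ccn5 at -1.14 lies outside it while Ccn1 and Ccn2 lie within it.

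In CPM, 5 of the 6 members did not overlap between the groups, 2 higher and 3 lower with PDGF-DD, where 47.1% of all tested genes did not overlap, 23.6% higher and 23.5% lower. To ask whether members changed unequally, the ratio of each pair was taken within each library, which does not depend on how libraries are scaled. The groups were apart for 10 of 15 pairs, with an exact two-sided permutation p of 0.1, the smallest that 3 against 3 libraries can give, and an adjusted p of 0.15 over the pairs. With that floor no pair could pass a threshold of 0.05. The 15 ratios share 6 genes, and the share of other gene pairs that lie apart was not computed. The pairs apart include Ccn5 to Ccn6, and Ccn6 was close to the limit of detection. Ccn2 was 6.25 times as abundant as Ccn5 with PDGF-DD and 2.44 times in control, a difference of 1.36 on the log2 scale of the TPM ratio. The ratio of Ccn1 to Ccn5 was 2.75 with PDGF-DD and 1.05 in control. Ccn4 stood at 0.429 of Ccn5 with PDGF-DD and at 0.214 in control, although both genes were lower with PDGF-DD. The log2 ratio of Ccn1 to Ccn2 was -1.18 ± 0.02 with PDGF-DD and -1.21 ± 0.06 in control (SD, n = 3 each), and the groups overlapped (difference 0.03, exact permutation p = 0.5). The test does not show that these genes changed alike. The other 4 pairs whose groups overlapped all involve Ccn6.

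Genes whose pattern over the 6 libraries was closest to each member were found by the root mean square distance of centred log2 CPM profiles. A near gene has a similar fold change by the way the distance is built, so these distances describe likeness in these libraries only. For Ccn5 the nearest of 10458 genes averaging 5 CPM or more were Arhgef26, the potassium channel subunit gene Kcne4 and the catenin family gene Arvcf. Their distances were between 0.065 and 0.069 log2 units and their log2 fold changes between -1.26 and -1.12. Within 0.1 of the Ccn5 profile lay 15 genes, and within that distance 341 of Ccn3, 2433 of Ccn1, 2903 of Ccn2 and 3379 of Ccn4. The distance is not scaled to the size of a change, so few genes can lie near a member with a large fold change. Nearest to Ccn3 were 4930523C07Rik, the choline transporter-like gene Slc44a2 and Csrp1, which encodes a LIM protein bound to actin. Nearest to Ccn1 were Tnfaip2, the nuclear pore gene Nup205 and the phosphatase gene Dusp7, to Ccn2 Alg2, Tram1 and Ddx47, and to Ccn4 Nbr1, Ralgapb and Lrrc58. Ccn6, at 11 to 21 counts, had as its nearest Fuz, Zfp945 and Gm40514, at distances of 0.088 to 0.101.

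CCN proteins act through cell-surface receptors and bound matrix and growth factors, and more of the listed partners were called lower than higher. Of 23 tested partners 4 rose and 9 fell, or 17.4% and 39.1%, where all tested genes gave 19.1% and 17.4%, and their median log2 fold change was -0.08. The integrin subunit genes Itga5 and Itgb3 rose, to 575 ± 5.82 CPM with PDGF-DD against 439 ± 2.85 CPM in control, and to 53.6 ± 3.13 CPM with PDGF-DD against 36.2 ± 0.14 CPM in control (log2 fold changes 0.39 and 0.56, edgeR adjusted p = 3.38e-09 and 4.02e-09). Itga6 and Sdc4, which encode a further integrin subunit and a heparan sulfate proteoglycan, rose by log2 fold changes of 0.35 and 0.34. Itgb5, another partner of the integrin αv chain, fell to 749.8 ± 31.2 CPM with PDGF-DD against 1069 ± 34.5 CPM in control (edgeR adjusted p = 1.12e-10). Bmp4, a growth factor that CCN2 binds, fell to 23.2 ± 0.82 CPM with PDGF-DD against 42.2 ± 3.45 CPM in control (log2 fold change -0.86, edgeR adjusted p = 7.36e-11). The fibronectin gene Fn1 fell by 0.27 on the log2 scale, and the proteoglycan gene Bgn did not pass, at 6115 ± 189 CPM with PDGF-DD and 6256 ± 211 CPM in control (edgeR adjusted p = 0.501). The remaining genes called lower were Fgfr2, Hspg2, Lrp1, Dcn, Vegfa and Igf2r. Their log2 fold changes were -0.68, -0.31, -0.31, -0.22, -0.19 and -0.17. These genes, Itga6 and Sdc4, like Yap1 among the transcription factors, were named after their values were seen.

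Among proteases known to cut CCN proteins, 4 of the 8 listed genes were tested, and 2 rose and 1 fell, or 50% and 25%. All tested genes gave 19.1% and 17.4%, and the median log2 fold change of the list was 0.10. Mmp13, a collagenase, rose to 3.38 ± 0.41 CPM with PDGF-DD against 1.16 ± 0.10 CPM in control (log2 fold change 1.53, edgeR adjusted p = 3.65e-07), and the stromelysin gene Mmp3 rose by a log2 fold change of 0.23. The log2 fold change of Mmp13 was smaller, 0.96 and 0.67, in limma on log2(TPM + 1) and log2(FPKM + 1), where the call was kept. The membrane-bound enzyme gene Mmp14 fell to 951 ± 11.2 CPM with PDGF-DD against 1172 ± 51.3 CPM in control. Mmp2, a gelatinase, had 225 ± 1.68 CPM with PDGF-DD and 231 ± 9.31 CPM in control, which did not pass (edgeR adjusted p = 0.462).

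Of 17 YAP/TAZ-TEAD and MRTF-SRF factors and their upstream kinases 1 rose and 6 fell, or 5.88% and 35.3%. All tested genes gave 19.1% and 17.4%, and the median log2 fold change of the list was -0.04. The number that rose was 2 with total count scaling or without PDGF-DD replicate 3 or control replicate 3, and 0 in limma on log2(TPM + 1) or log2(TPM + 0.1), where the call of Yap1 was lost. Lats2, a kinase that restrains YAP, fell by 0.32 on the log2 scale. It is also in the list of YAP/TAZ target genes and counts among the 8 called lower there. Tead1 and Tead3, which encode the DNA-binding partners of YAP, fell by 0.22 each, while Yap1, the gene called higher, changed by 0.14. The cofactor gene Vgll3 fell by 0.19 on the log2 scale (edgeR adjusted p = 0.000355), and Rhoa, an upstream GTPase, had a log2 fold change of -0.07 and did not pass (edgeR adjusted p = 0.157).

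Other YAP/TAZ targets were called in both directions, and the activity of YAP and TAZ was not tested. Of 20 YAP/TAZ target genes outside the family 6 rose and 8 fell, or 30% and 40%, where all tested genes gave 19.1% and 17.4%. The median log2 fold change of the list was 0.01. Ankrd1, a nuclear ankyrin repeat protein gene often read beside Ccn1 and Ccn2, rose to 772 ± 30.5 CPM with PDGF-DD against 613 ± 16.0 CPM in control (log2 fold change 0.33, edgeR adjusted p = 1.42e-07). Igfbp3, an IGF-binding protein gene, rose by 0.69 and the Rac exchange factor gene Dock5 by 0.55. Axl, a receptor tyrosine kinase gene, rose by 0.14 (edgeR adjusted p = 0.00241), and Tgfb2, a TGF-beta ligand gene that is also in the TGF-beta list, fell by 0.94 on the log2 scale.

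Contractile targets of MRTF-SRF were lower almost throughout, and the activity of these factors was not tested. Of 16 tested genes 14 fell and none rose, or 87.5% lower against 17.4% of all tested genes, with a median log2 fold change of -0.22. The number that fell was 13 in DESeq2 and 12 with total count scaling, with the replicate block and in each limma fit. It was 11 to 13 with a library left out. The number that rose was also 0 at an unadjusted edgeR p under 0.05, in DESeq2 and in limma. The actin-binding leiomodin gene Lmod1 fell to 37.7 ± 1.09 CPM with PDGF-DD against 61.2 ± 5.46 CPM in control, and the myosin light chain gene Myl9 to 229.9 ± 10.1 CPM with PDGF-DD against 344 ± 16.4 CPM in control. Acta2, smooth muscle actin and the usual myofibroblast marker, fell by 0.37 on the log2 scale and Fhl2 by 0.39. Tagln, a further actin-binding protein gene, fell by 0.16. Of 6 tested markers of smooth muscle cells and pericytes 3 were lower and 1 higher, where all tested genes gave 17.4% lower and 19.1% higher. The summed level of these markers was 178 to 185 TPM with PDGF-DD and 188 to 214 TPM in control. None of these markers was at 0, Kcnj8 was below 1 TPM in every library, and their part in the result was not tested.

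In the TGF-beta and SMAD list 6 of 19 genes rose and 5 fell, or 31.6% and 26.3%. All tested genes gave 19.1% and 17.4%, and the median log2 fold change of the list was 0.04. Leaving out PDGF-DD replicate 3 or control replicate 3 left 2 called lower, and limma on TPM or FPKM called 3. Ltbp1, which encodes a protein that holds latent TGF-beta in the matrix, rose 2.01-fold, and Smurf2, a ubiquitin ligase of the pathway, rose by 0.51 on the log2 scale. Pmepa1, a feedback inhibitor gene, fell by 0.12 on the log2 scale, a call that was lost without PDGF-DD replicate 1 (edgeR adjusted p = 0.0965) or 3 (0.141) or control replicate 3 (0.154). It was also lost in limma on log2(TPM + 1), log2(TPM + 0.1) and log2(FPKM + 1), with adjusted p-values of 0.0654, 0.062 and 0.0815. The range of its adjusted p over all alternatives was 0.00396 to 0.154.

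Targets of Wnt/beta-catenin, the pathway after which Ccn4 was first named, gave no rise among 9 tested genes, and 3 fell, or 33.3%. All tested genes gave 19.1% higher and 17.4% lower, and 9 genes are too few to tell 0 rises from that share. The median log2 fold change of the list was -0.12. At an unadjusted edgeR p under 0.05, in DESeq2 and in limma, 0 rose as well. The feedback inhibitor genes Nkd1, Nkd2 and Apcdd1 fell by 0.76, 0.32 and 0.63 on the log2 scale, and Ctnnb1, encoding beta-catenin itself, had 505 ± 4.12 CPM with PDGF-DD and 516 ± 8.55 CPM in control, which did not pass (edgeR adjusted p = 0.534).

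**Figure D4:**
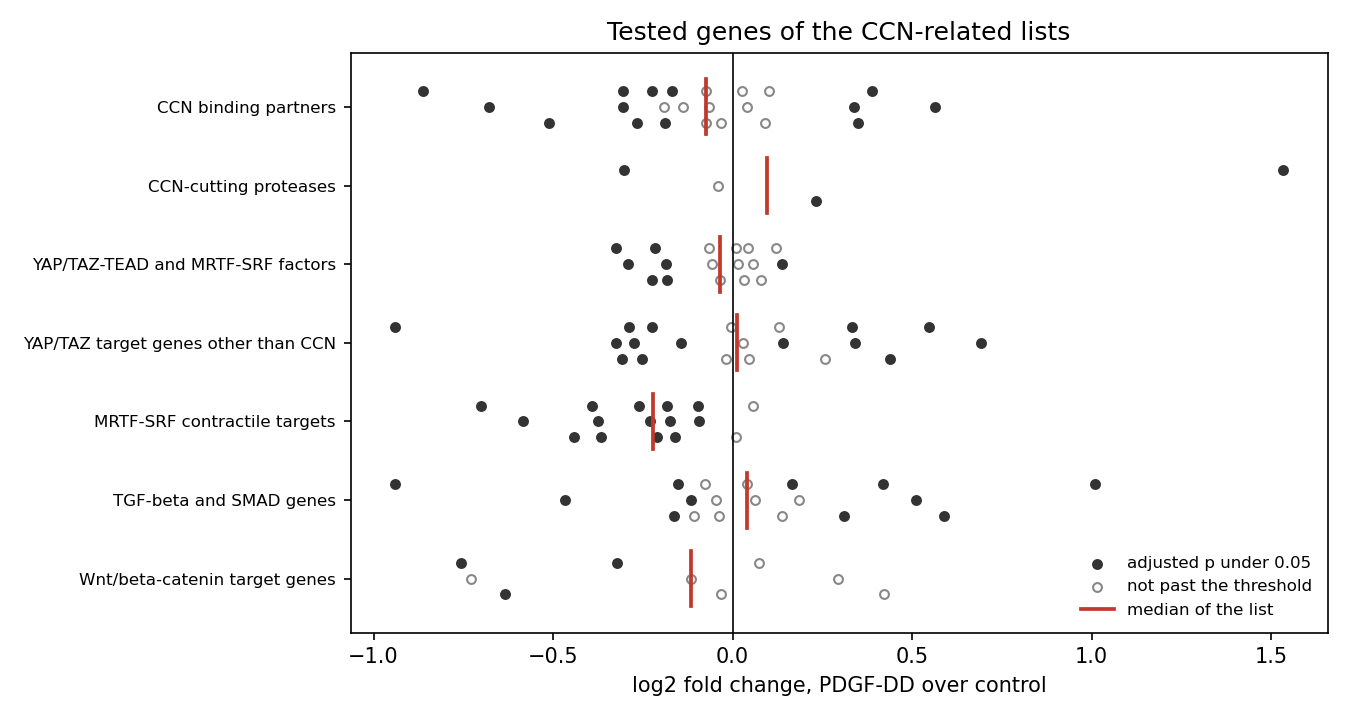
Log2 fold change, PDGF-DD over control, of each tested gene in 7 lists related to the CCN family, with filled points for an adjusted p under 0.05, open points for the rest and a red line at each list's median. The contractile list lies almost wholly below 0, with 14 of 16 genes called lower. The YAP/TAZ target list spreads on both sides, with 6 called higher and 8 lower. Of all tested genes 19.1% were called higher and 17.4% lower.

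In bulk RNA of a culture, fewer cells of a type and less RNA per cell cannot be told apart, for Ccn5 as for the other members. Among the 10 fibroblast markers 1 was called higher and 6 lower, and 3 of 6 tested cardiomyocyte markers were lower and none higher. Called lower were 1 of 6 endothelial, 1 of 7 macrophage and leukocyte, 1 of 5 epicardial and 0 of 3 tested Schwann cell markers. None of these was called higher, and all tested genes gave 19.1% higher and 17.4% lower. The part of these marker changes in the changes of the CCN genes was not tested.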

How the data were processed

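RNA of 6 libraries, 3 PDGF-DD and 3 control, was captured on oligo(dT) beads, reverse transcribed with random hexamers and read on DNA nanoballs, per the labels' protocols. HISAT2 2.0.4, Bowtie2 2.2.5, RSEM 1.2.12, DESeq2 1.4.5 and build mm9 are named in the submitters' processing notes without roles; strandedness, gene annotation and filtering were not given in the sources used here, which leaves overlapping genes uncertain. The authors deposited per library estimated counts that are not normalized (31.93% to 32.65% of values not whole), FPKM values scaled by the authors to depth and transcript length, and TPM values that add up alike in every library, per the file headers and values.

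Estimated counts were rounded and filtered with filterByExpr at its defaults, scaled with TMM and compared with edgeR 4.0.16 (quasi-likelihood F test, robust, two-sided, R 4.3.3), with Benjamini-Hochberg adjustment over 13270 genes. A standard error is the log2 fold change divided by the square root of F, without sign, and 95% intervals use the test's degrees of freedom. Group values are means ± SD of CPM or TPM over 3 libraries. The method was tested on simulated data. Alternatives were RLE, upper-quartile and total count scaling, DESeq2 1.42.0, no filter, limma 3.58.1 on log2 TPM or FPKM with a pseudocount of 1 or 0.1, a replicate block and leaving out each library. Totals of 21221114 to 21371829 counts left the lowest members, Ccn6 above all, with few counts. No library pair was identical or within sampling noise, and each was counted as 1 replicate, which does not show that they came from separate animals or cultures. Named from each list are the 2 tested genes of highest mean TPM and at most 4 called genes, by lowest p; for each member the 3 genes with the nearest profile are named too. One gene that this rule names is not reported here. The members and lists were chosen with earlier results of these data known. Promoters are from RefSeq, GRCm38.p6, a build that differs from mm9, so the only coordinates printed are those of the Ccn1 promoter window in that build.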

Additional observations from a re-analysis of the deposited data

How the results depend on the processing

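Ccn1, Ccn2, Ccn3 and Ccn5 kept their direction and their call under all 15 alternatives, with log2 fold changes from 0.23 to 0.28, 0.20 to 0.25, -0.54 to -0.47 and -1.16 to -1.08. Ccn4 stayed lower but lost its call in limma on log2(TPM + 1), log2(TPM + 0.1) and log2(FPKM + 1), at log2 fold changes of -0.14 (adjusted p = 0.0582), -0.14 (0.0537) and -0.12 (0.071), and over the libraries left out it ranged from -0.17 to -0.087. Ccn6 reversed in limma on log2(TPM + 1), to 0.00018, and on log2(FPKM + 1), to 0.0034, without passing a test; the added 1 exceeds its level. Bgn reversed without PDGF-DD replicate 3, to 0.00058, in a range of -0.057 to 0.00058 over the libraries left out. In the list of YAP/TAZ-TEAD and MRTF-SRF factors 2 genes rose under total count scaling, 0 in limma on log2(TPM + 1) and on log2(TPM + 0.1), and 1 to 2 with a library left out. In the TGF-beta list 3 genes fell in each of the 3 limma fits and 2 to 6 with a library left out. Of the other list counts all stayed within 1.5 times. The causes were not tested. With CPM in place of TPM, which drops the correction for length, the shares of Ccn1, Ccn2, Ccn4, Ccn5 and Ccn6 were 22.6%, 61.1%, 8.77%, 7.03% and 0.012% with PDGF-DD and 19.5%, 53.9%, 9.91%, 15.9% and 0.017% in control.

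The labels state no pairing by replicate number. The deviations of same-numbered libraries correlated at -0.07, -0.09 and -0.03, and those of differently numbered libraries at -0.02 to 0.08. With 3 libraries per group such values cannot show whether libraries shared a culture or batch. With the replicate block 2269 genes were higher and 2076 lower, against 2535 and 2310 without it; the log2 fold changes of Ccn1 to Ccn5 were 0.25, 0.22, -0.52, -0.13 and -1.14, and the call of Pmepa1 was lost (adjusted p = 0.0759).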

Other observations

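For Ccn6 the deposited TPM per estimated count was higher in 1 library than in the others, and the cause was not tested. PDGF-DD replicate 2 was listed at 0.38 TPM from 13.75 estimated counts, while control replicate 1 was listed at 0.27 TPM from 21. The TPM per estimated count of Ccn6 ran from 0.0129 to 0.0276 over the 6 libraries, whereas that of Ccn5 ran only from 0.0615 to 0.065.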
